A study of Mus musculus with 2 samples.

Results

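Methylation of histone H3 at lysine 36 (H3K36) is set and removed by a small family of enzymes, and the 10 genes described here encode 5 of its writers (Setd2, Nsd1, Nsd2, Nsd3 and Ash1l) and 5 of its erasers (Kdm2a, Kdm2b, Kdm4a, Kdm4b and Kdm4c). They were chosen by name for their enzymatic role, a rule that uses no measured value, from 21774 protein-coding genes. The choice was made with earlier results of these data known. Their peaks were those of the histone variant H2AZ that overlapped the gene or the 5 kb on either side of it, 11 of 21546 peaks in all. H2AZ was mapped by chromatin immunoprecipitation with sequencing (ChIP-seq) in neural progenitor cells from the brain of C57BL/6 embryos at embryonic day 13. The series had 1 ChIP library and 1 input library, which shared strain, age, tissue and cell type, and no genotype or treatment was given for either. With 1 library no value could be checked against a replicate, and no test was made. The series title links H2AZ in these cells to Setd2 and to H3K36 trimethylation. Depth is unknown, and intervals are 95% exact binomial (Clopper-Pearson) intervals over genes or starts that cover counting error only.

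Trimethylation of H3K36 marks the bodies of transcribed genes. SETD2 travels with elongating RNA polymerase II and makes the trimethylated form, while the NSD enzymes and ASH1L make the dimethylated form. KDM2A and KDM2B remove the lower methylation states and carry a CXXC zinc finger that binds unmethylated CpG-rich DNA, through which KDM2B brings a Polycomb complex to CpG islands; the KDM4 enzymes remove trimethylation from H3K36 and from H3K9. H2AZ is a variant of histone H2A that commonly occupies the nucleosomes beside active or poised CpG-rich promoters, so a peak at a gene's start is its usual place.

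Start sites with sequence were used for 4 of the 10 genes, all from RefSeq on GRCm38.p6. The first pair of starts lay inside an H2AZ peak, and their sequences are shown because they differ widely in CG content. Each runs 5′ to 3′ from 250 bases before to 50 bases after the start, with every CG dinucleotide in capitals.

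Setd2, chr9:110532347-110532646, plus strand: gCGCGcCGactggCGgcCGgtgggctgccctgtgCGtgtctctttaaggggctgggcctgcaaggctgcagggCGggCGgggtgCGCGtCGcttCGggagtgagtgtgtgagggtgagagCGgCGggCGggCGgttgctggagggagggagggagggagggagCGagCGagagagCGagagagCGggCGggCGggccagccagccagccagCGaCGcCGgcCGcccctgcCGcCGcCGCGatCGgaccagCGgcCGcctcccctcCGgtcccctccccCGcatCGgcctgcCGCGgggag
Kdm4a, chr4:118179994-118180293, minus strand: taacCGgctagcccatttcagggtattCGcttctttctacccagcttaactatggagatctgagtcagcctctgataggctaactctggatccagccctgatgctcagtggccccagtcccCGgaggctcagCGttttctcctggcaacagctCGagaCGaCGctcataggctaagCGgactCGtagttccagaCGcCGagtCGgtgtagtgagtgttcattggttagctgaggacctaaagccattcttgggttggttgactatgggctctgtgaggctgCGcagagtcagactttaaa

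The other starts had no listed peak within 1 kb. Those of Kdm2b with 18 and 47 CG are not printed. The rest are shown because all but the first Kdm4c start are as rich in CG as many starts that do have a peak.

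Kdm2b, chr5:122989050-122989349, minus strand: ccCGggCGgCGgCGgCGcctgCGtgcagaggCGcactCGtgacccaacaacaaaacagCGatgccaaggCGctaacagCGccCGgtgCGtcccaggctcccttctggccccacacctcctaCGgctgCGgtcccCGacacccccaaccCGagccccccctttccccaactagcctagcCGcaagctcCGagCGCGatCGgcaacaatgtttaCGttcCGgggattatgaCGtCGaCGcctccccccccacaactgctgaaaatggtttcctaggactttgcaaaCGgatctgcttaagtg
Kdm2b, chr5:122900301-122900600, minus strand: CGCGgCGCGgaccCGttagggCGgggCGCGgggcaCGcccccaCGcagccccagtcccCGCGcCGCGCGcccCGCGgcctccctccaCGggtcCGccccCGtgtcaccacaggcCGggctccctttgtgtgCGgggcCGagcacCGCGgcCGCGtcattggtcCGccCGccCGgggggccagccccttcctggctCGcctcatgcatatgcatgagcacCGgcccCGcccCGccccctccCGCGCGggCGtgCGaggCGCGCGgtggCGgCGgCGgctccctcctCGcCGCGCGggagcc
Kdm4c, chr4:74242247-74242546, plus strand: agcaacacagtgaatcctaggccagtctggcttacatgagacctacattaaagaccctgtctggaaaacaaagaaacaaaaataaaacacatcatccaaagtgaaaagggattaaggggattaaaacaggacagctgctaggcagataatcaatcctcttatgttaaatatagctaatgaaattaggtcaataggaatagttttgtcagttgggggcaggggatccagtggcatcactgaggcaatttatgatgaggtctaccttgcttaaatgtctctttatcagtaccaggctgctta
Kdm4c, chr4:74251629-74251928, plus strand: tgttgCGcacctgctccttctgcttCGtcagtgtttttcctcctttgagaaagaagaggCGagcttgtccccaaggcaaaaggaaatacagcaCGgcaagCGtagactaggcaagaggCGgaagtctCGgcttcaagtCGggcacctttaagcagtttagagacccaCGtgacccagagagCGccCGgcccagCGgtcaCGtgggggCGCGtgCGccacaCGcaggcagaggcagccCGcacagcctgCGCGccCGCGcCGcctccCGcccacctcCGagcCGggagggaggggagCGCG

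Of the 10 genes, 7 (70%, interval 34.8 to 93.3%) had at least 1 peak in the gene or its 5 kb flanks, against 63.8% of all protein-coding genes and 81.1% of those at least as long as Kdm4a, the shortest of the 10. All 10 were long, between 43.1 and 163 kb with a median of 97.5 kb, where the median protein-coding gene spanned 17.2 kb. The members had 1.1 peaks per gene, beside a mean of 0.956 over all protein-coding genes and 1.36 over those of that length. A peak within 1 kb of either boundary of the gene was present at 5 of 10 (50%, interval 18.7 to 81.3%), namely Setd2, Nsd3, Ash1l, Kdm4a and Kdm4b, against 55.4% of all protein-coding genes and 67.4% of those of that length. The first share lay between its background shares and the second below both of its own, and each interval included them, so neither count sets these genes apart. The median of the members' highest boundary peaks was 16.1, against 17.1 over all genes with a boundary peak. With the flanks and interiors included, the median of their highest peaks was 20.3, against 17.3 over all genes with such a peak. This median was not taken over genes of the members' length, which had more peaks per gene. A peak among the highest 25% of scores (17.9 or higher) was present at 5 of the 7, with Kdm2b at 17.9 itself. The share of all genes passing this cutoff was not computed, and their median of 17.3 lay just below it. For Nsd1, Nsd3 and Kdm4a the gene's highest peak lay in a flank.

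**Figure D1:**
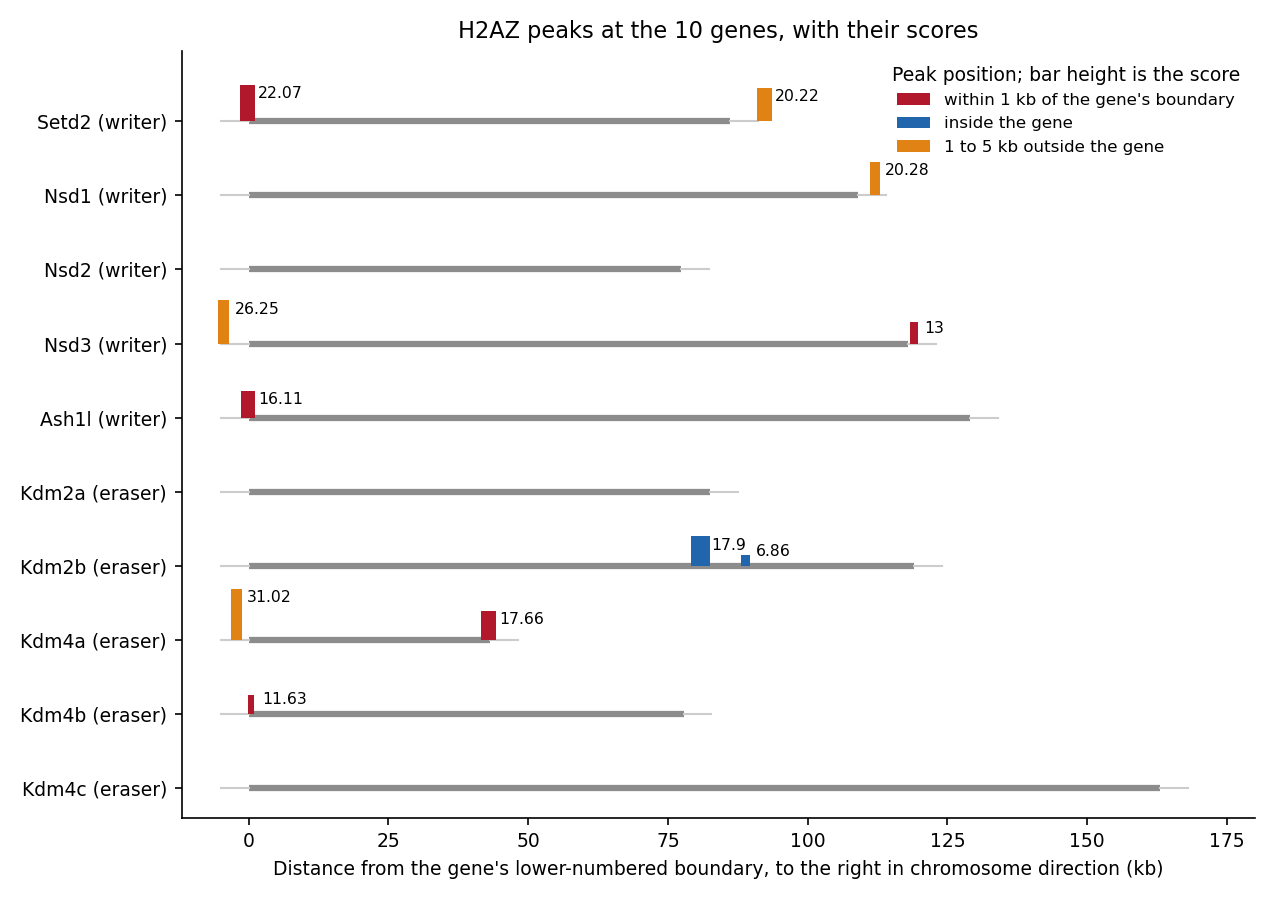
H2AZ peaks (bars) at the 10 genes (grey lines, with thin lines for the 5 kb flanks), plotted by distance in kb from the lower-numbered boundary of each gene; bar height is the authors' score, printed beside it. Setd2, Ash1l, Kdm4a and Kdm4b have a peak over one boundary, the Kdm2b peaks lie inside the gene, and Nsd2, Kdm2a and Kdm4c have no listed peak.

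Setd2 had the strongest boundary peak of the 10. The peak (chr9:110530881-110533668) had a score of 22.07, the authors' own value per peak, of which the unit is not named and whose median over all peaks was 11.9 (quartiles 7.95 and 17.9). Only 11.4% of all peaks scored higher, although 137 peaks shared exactly this score, and among genes with a boundary peak 20.8% had a higher one. The peak was also broad, at 2788 bp, with 8.18% of all peaks wider. It covered the listed Setd2 start and reached 1716 bp upstream of it and 1071 bp downstream. Over the 11162 listed starts that lay inside a peak, the medians were 1062 bp upstream and 1122 bp downstream, so the excess at Setd2 lay on the upstream side, as it did at 43.9% of those starts.

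The start of Setd2 is strongly CpG-rich. Its 300 bases held 38 CG dinucleotides and 77.3% G and C, and 5.79% of all listed starts held more CG. A GC box, GGGCGG, the motif bound by the Sp and Klf zinc finger factors, occurred 7 times on both strands together, and 46.2% of all starts had at least 1. A second peak (chr9:110623477-110626083, score 20.22) entered only by its edge, 4.84 kb beyond the other end of Setd2, and covered the start of Nradd, a gene of the neurotrophin receptor family, while also lying at the far end of Nbeal2. No listed peak lay within the body of Setd2 away from its start.

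Ash1l had a peak of score 16.11 over its lower-numbered boundary (chr3:88948950-88951567), which 32% of all peaks exceeded. At 2618 bp it was nearly as broad as the Setd2 peak. The boundaries of Ash1l and Dap3, a gene for a mitochondrial ribosomal protein, overlap here, and this 1 peak covered both, so it cannot be assigned to either gene. The next listed peak on the other side lay 9.65 kb past the end of Ash1l, outside the 5 kb flank.

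The 3 NSD genes had no peak over a boundary that was theirs alone. Nsd1 had 1 peak in its flank (chr13:55321171-55322935, score 20.28), 2.85 kb outside the gene. That peak covered the divergent starts of Rab24, a small GTPase gene, and Prelid1, a gene of mitochondrial lipid transport. Nsd3 had the highest score among the writers, 26.25, but in a peak 3.47 kb outside the gene (chr8:25596142-25598132), at boundaries of Letm2 and of the long non-coding RNA gene D830025C05Rik. Its other peak (chr8:25719699-25721212, score 13) began 32 bp past the opposite boundary of Nsd3 and overlapped Plpp5, a lipid phosphatase gene; it is the reason Nsd3 counts among the 5 with a boundary peak. Nsd2 had none, and the nearest listed peaks were 36.7 kb before and 37.1 kb after it. Strand was not used for Nsd1, Nsd2, Nsd3 or Ash1l, so their boundaries are not named as start or end.

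Among the erasers Kdm4a and Kdm4b had a peak of their own at a boundary. The Kdm4a peak (chr4:118178462-118181282) scored 17.66, with 25.7% of peaks higher, and at 2821 bp was the broadest boundary peak of the 10 genes. It covered the Kdm4a start, 1239 bp of it upstream and 1581 bp downstream, the opposite skew to Setd2. The sequence of that start differs from Setd2 as well. It held 13 CG dinucleotides, the median of all listed starts, had no GC box and had 1 CCAAT box, a motif (CCAAT, both strands) found in 38.2% of starts. The Kdm4b peak (chr17:56325904-56326981) was the weakest and narrowest of the boundary peaks, with a score of 11.63 and a width of 1078 bp; 98.6% of all peaks were wider. It began 66 bp before the lower-numbered boundary of Kdm4b and lay almost wholly inside the gene.

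**Figure D2:**
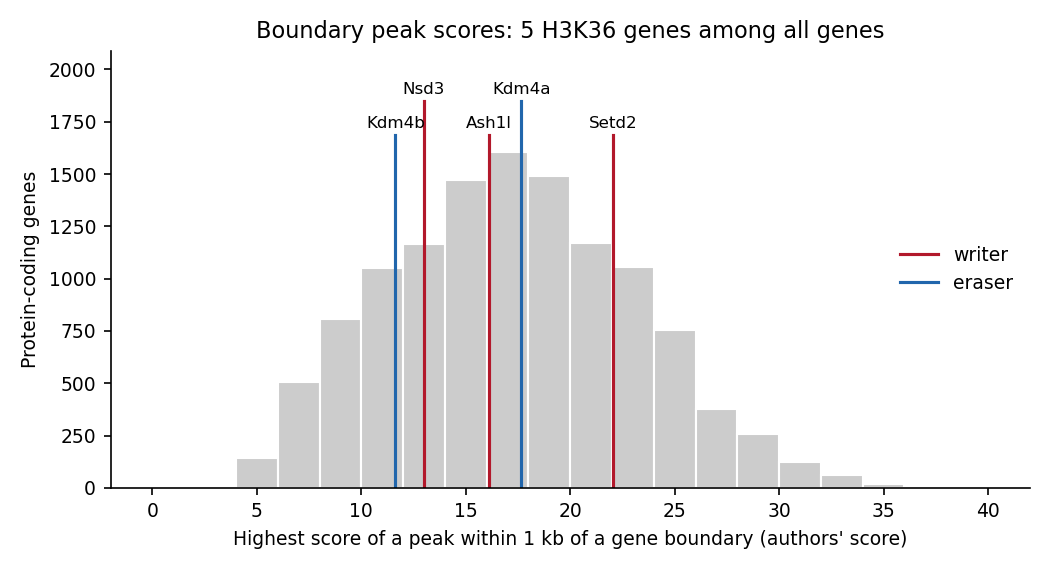
Histogram of the highest score within 1 kb of a boundary over protein-coding genes that have such a peak (grey), with the 5 H3K36 genes as vertical lines, writers in red and erasers in blue. Setd2 stands at 22.07, to the right of the median of 17.1, and Kdm4b at 11.63 is farthest to the left.

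The highest-scoring peak near any of the 10 genes belonged to a neighbour. It lay 1.14 kb beyond the end of Kdm4a (chr4:118133766-118135816) with a score of 31.02, exceeded by 0.608% of all peaks, and covered the start of St3gal3, a sialyltransferase gene. All 4 peaks that lay in a flank, without reaching within 1 kb of the member itself, were at a boundary of another protein-coding gene; over all protein-coding genes 66.4% of such pairs of gene and flank peak were. The starts under the strongest of these (St3gal3) and under the shared peak beside Nsd1 (Prelid1) are shown because they carry scores that the 5 kb rule would otherwise lend to Kdm4a and Nsd1.

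Prelid1, chr13:55321805-55322104, plus strand: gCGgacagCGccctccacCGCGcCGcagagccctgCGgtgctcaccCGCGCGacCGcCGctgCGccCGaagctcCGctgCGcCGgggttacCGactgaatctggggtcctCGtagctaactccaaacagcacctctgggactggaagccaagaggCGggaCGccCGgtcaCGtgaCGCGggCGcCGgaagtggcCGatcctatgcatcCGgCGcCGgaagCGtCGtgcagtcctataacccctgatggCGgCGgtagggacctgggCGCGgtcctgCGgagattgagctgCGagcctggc
St3gal3, chr4:118134897-118135196, minus strand: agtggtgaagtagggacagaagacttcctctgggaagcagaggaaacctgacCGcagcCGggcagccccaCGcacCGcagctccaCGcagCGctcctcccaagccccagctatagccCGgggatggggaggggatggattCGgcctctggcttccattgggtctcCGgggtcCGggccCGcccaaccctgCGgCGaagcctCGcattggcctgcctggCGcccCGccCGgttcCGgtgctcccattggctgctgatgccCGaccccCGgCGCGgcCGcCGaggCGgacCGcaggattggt

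The St3gal3 start held 26 CG and 4 CCAAT boxes, and the Prelid1 start 38 CG and 2 copies of CCGGAAG, a core that ETS factors bind (11.6% of all starts have it). By position, 5 of the 11 peaks were at a boundary of the member, 2 in its interior and 4 in a flank. The shares over all protein-coding genes were 62.7% at a boundary, 21.7% interior and 15.6% in a flank.

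Kdm2b was the gene with interior peaks. Its stronger peak (chr5:122949817-122953152) scored 17.9 and at 3336 bp was the broadest of the 11, with 2.38% of all peaks wider. It lay 37.8 kb inside the gene from the end where the outer start lies, and overlapped one end of Gm33118, a non-coding RNA gene on the opposite strand whose listed starts were 7.23 and 8.16 kb from the peak. The weaker peak (chr5:122958750-122960287, score 6.86) was among the low ones of the list, with 84.5% of peaks higher. Neither reached a start of Kdm2b. The nearest peak was 24.9 and 25.5 kb from the 2 outer starts and 49.1 kb from the 2 inner ones. Kdm2a and Kdm4c had no peak in the gene or its flanks. For Kdm2a the nearest listed peak was 9.19 kb away, and for Kdm4c it was 228 kb before the gene, with the next one 871 kb after it.

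The starts of Kdm2b and Kdm4c lacked a peak despite their sequence. The outer Kdm2b start had 28 CG and the inner one 49, more than all but 1.1% of listed starts, with 6 GC boxes; the 2 other Kdm2b starts had 18 and 47. The second Kdm4c start also had 28 CG, and 2 copies of CACGTG, an E-box found in 7.84% of starts, whereas the first had 0. Over 21263 listed starts of protein-coding genes, the share with a peak within 1 kb rose from 1.32% at starts with 0 CG to 74.5% at 10 to 14 CG, and was 83.2% (81.5 to 84.9%) at 25 to 29 and 80.3% (78.9 to 81.7%) at 30 or more. Counted by gene, 82.5% of the 4738 genes that had a listed start with 25 or more CG had a peak at one of their starts. Setd2 was among them, and Kdm2b and Kdm4c were among the rest. Of the 4 members with a listed start 2 had a peak there, against 55.3% of 17492 genes.

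**Figure D3:**
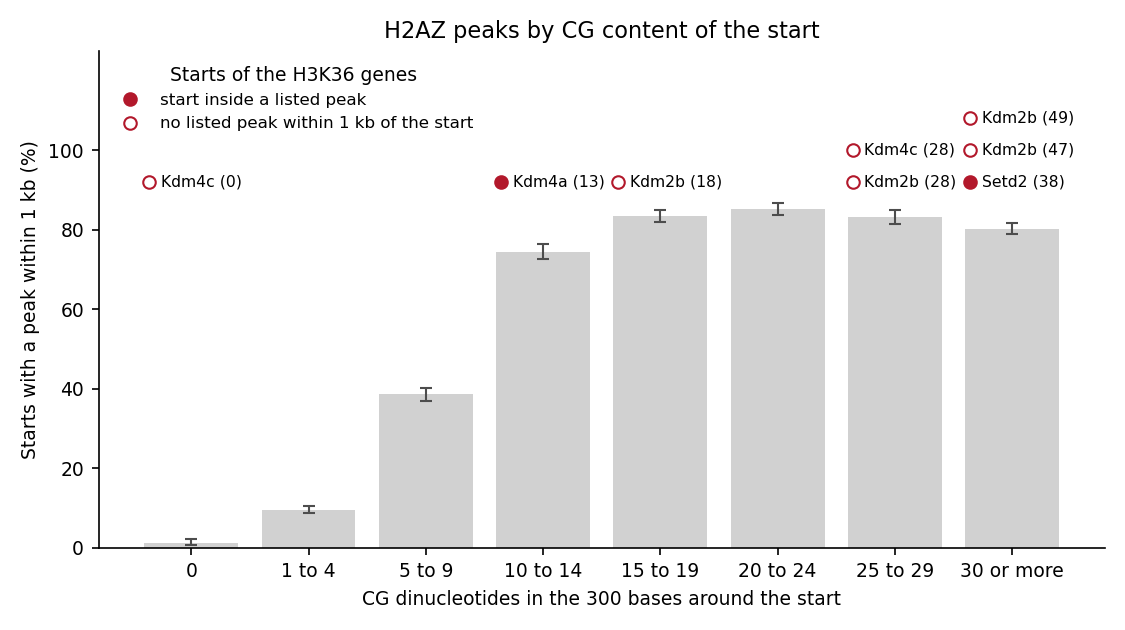
Share of listed starts with an H2AZ peak within 1 kb (bars, % with 95% exact intervals) by the number of CG dinucleotides in the 300 bases around the start; circles above the bars place the starts of the H3K36 genes at their CG number, filled where the start lies inside a peak. The Setd2 start (38 CG) and the Kdm4a start (13) are filled, and the Kdm2b starts (18, 28, 47 and 49) and Kdm4c starts (0 and 28) are open.

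More peaks were numbered than deposited, and the numbers show roughly where the others lay. The numbers in the peak names run to 32646, of which 66.1% are listed, and 46 listed peaks whose numbers follow the last one on chromosome Y, although they lie on other chromosomes, were left out. Among the peaks kept, the numbers ascended with position for all 21525 neighbouring pairs on a chromosome. Of these pairs, 68.9% carried consecutive numbers, so that none was missing between them. Read in that order, a number missing between a pair of neighbours marks a peak that was numbered between them and is not listed; its score, width and exact place are unknown. Unlisted peaks numbered after chromosome Y cannot be placed in this way. Within the numbering up to chromosome Y, at Kdm4a and Ash1l no number was missing anywhere from the listed peak before to the listed peak after the gene. At Setd2 none was missing across the gene body, but 1 was missing in the 121 kb before its boundary peak. Numbers were missing around each member without a peak at a boundary, and also near Nsd3 and Kdm4b, which have such a peak. In the stretch that held Nsd2, from 36.7 kb before to 37.1 kb after the gene, 1 number was missing. Around Kdm2a 2 were missing in a stretch of 131 kb, and around Kdm4c 1 in a stretch of 1262 kb. All 3 genes with no listed peak thus had an unlisted one in the surrounding stretch, as did 58.8% of all protein-coding genes with no listed peak and 78.4% of those at least as long as Kdm4a.

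Numbers were also missing at Nsd1, at Nsd3 and around the starts of Kdm2b. At Nsd1 1 missing number fell between 18.6 kb before Nsd1 and the listed peak past its end. For Nsd3 1 number was missing between its 2 listed peaks, a stretch of 122 kb that began 3.47 kb outside one boundary and ended at the other, so that this unlisted peak lay within the gene or that short flank. At Kdm2b 2 numbers were missing in the 53.7 kb that hold the outer starts, and 1 in the 98.6 kb that hold the inner starts. Kdm4b had 4 missing numbers in the 179 kb from its listed peak to the next, and 1 in the 20.5 kb before that peak. Before the flank peak of Nsd3, 1 more was missing in a stretch of 75.9 kb. The lack of a listed peak at these genes therefore does not show a lack of H2AZ.

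Writers and erasers were set side by side without a test, since genes are not replicates. A peak in the gene or its flanks was present at 4 of 5 writers and 3 of 5 erasers, and at a boundary at 3 of 5 and 2 of 5. The median score of the 6 writer peaks was 20.2 and that of the 5 eraser peaks 17.7, and their ranges overlapped (13 to 26.25 and 6.86 to 31.02). None of the writer peaks was interior, and both interior peaks were at 1 eraser, Kdm2b.

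Genes that act with H3K36 methylation had boundary peaks as follows, beside the 55.4% of all protein-coding genes. Of 14 genes for readers of the mark, 11 had one. The highest were at Glyr1, a nucleosome-binding PWWP protein gene (28.93, in a peak also at Rogdi and Ubn1), the mismatch repair gene Msh6 (25.65) and the Polycomb-associated gene Phf1 (21.18, in a peak shared with neighbouring genes). Brpf3, Dnmt3a and Dnmt3b had none, though a peak of 26.25 lay inside Dnmt3a. Of 8 other enzymes proposed to act on H3K36, 6 had one, with Riox2 (26.25), the meiotic methyltransferase gene Prdm9 (25.65) and Smyd2 (21.2) highest and Riox1 and Setd5 without.

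All 12 genes for elongation factors that work around SETD2 had a boundary peak (interval 73.5 to 100%). The highest were at Iws1, whose product links SETD2 to the elongating polymerase (23.56), the histone chaperone gene Supt16 (21.48, also at Chd8) and Rtf1 of the PAF complex (21.18), and the lowest was at Polr2a, the large subunit of RNA polymerase II (12.23). The median over these genes was 17.6, close to the 17.1 of all genes with a boundary peak. Among 9 partners of KDM2B in its Polycomb complex 6 had one, led by Pcgf1 (28.85), which encodes the subunit that defines the complex, Rybp (22.07) and Rnf2 (17.3). Ring1, Usp7 and Yaf2 had none, but Usp7 had a peak of 26.55 inside the gene.

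Enzymes for other histone lysines had boundary peaks at 15 of 18 methyltransferase genes, led by Suv39h2 (27.6, also at Dclre1c), Kmt5a (22.67) and Kmt2b (22.38, also at Zbtb32), with Ehmt2, Kmt2c and Setdb1 lacking one. Demethylase genes had one in 10 of 14 cases, led by Kdm3b (18.79, also at Reep2), Kdm6a (17.9) and Kdm1a (17.6), and Kdm1b, Kdm5d and Kdm7a were the first of those without. The 5 H3K36 writers and erasers without a boundary peak are Nsd1, Nsd2, Kdm2a, Kdm2b and Kdm4c. The share of 50% for the 10 members was the lowest among these gene groups, but its interval overlapped those of all 6 lists, and the groups were not tested against each other.

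**Figure D4:**
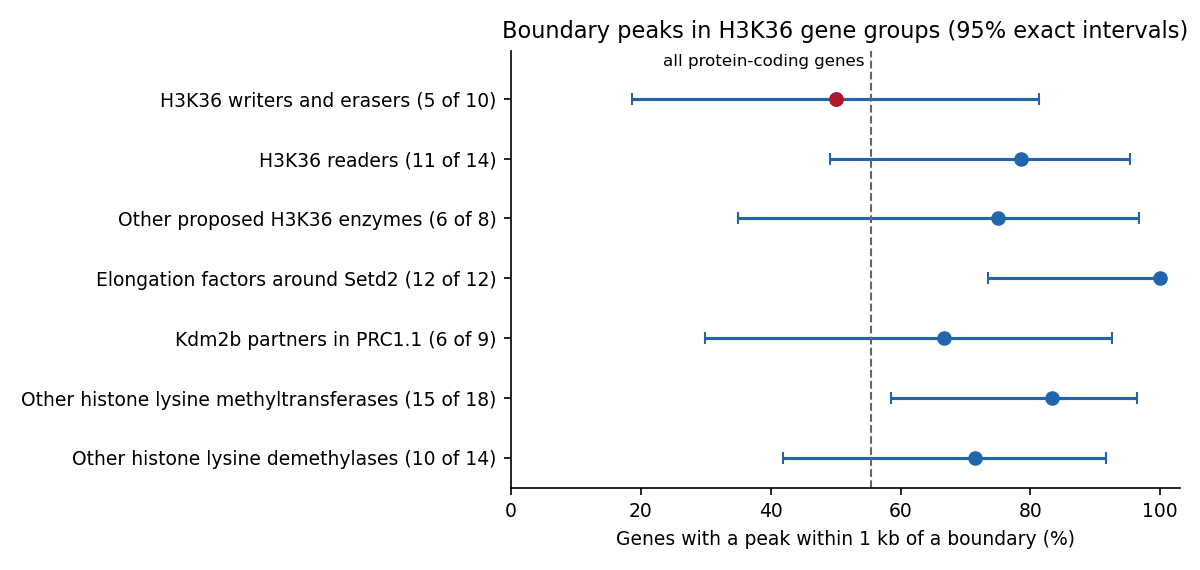
Share of genes with a peak within 1 kb of a boundary (%, points, with 95% exact intervals) for the 10 H3K36 writers and erasers (red) and 6 groups of related genes (blue); the dashed line is the 55.4% of all protein-coding genes. The H3K36 genes stand at 50% and the elongation factors at 100%.

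The labelled cell type was looked at through genes that mark it, although an H2AZ peak does not measure expression. Boundary peaks were present at 7 of 8 neural progenitor marker genes (not at Sox2), 3 of 6 neuronal, 1 of 5 endothelial, 0 of 5 microglial, 2 of 5 erythroid and 3 of 5 mesenchymal and meningeal ones. Beside the 55.4% of all protein-coding genes, the interval of each of these shares included the background except the microglial one (0 to 52.2%). The median of the highest boundary scores was 10.4 at the progenitor, 10.7 at the neuronal and 16.4 at the endothelial markers. It was 13.5 at the erythroid and 9.55 at the mesenchymal and meningeal ones, against 17.1 over all genes with a boundary peak.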

How the data were processed

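The H2AZ ChIP of E13 neural progenitor cells and an input (1 library each) yielded 1 deposited peak list with a start, an end and a score per peak; the score is the authors' deposited value, of unnamed unit, and starts, counted from 0 as deposited, are printed counted from 1. Peak names carry the name MACS, per the deposited file; its settings were not given in the sources used here. The submitters' processing notes name CASAVA 1.4, FastQC, Bowtie2 2 and the build mm9. Positions were read as GRCm38 and not converted: 42.1% of peaks held a RefSeq start, 2.42% after a shift of 10000 bp and 2.14% after 1000000 bp.

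Of 21592 peaks, 46 whose numbers follow chromosome Y stood out of order and were left out. Overlaps needed 1 bp. Genes, starts and sequences are from RefSeq tables of GRCm38.p6; starts were used for 17492 of 21774 genes, so gene boundaries, meaning either end, were used where all genes are compared. The members and gene lists were chosen with earlier results of these data known. Named are all members, genes with an end within 1 kb of a member's peak, and of each related list the 3 highest boundary peaks and the first 3 genes in alphabetical order without one. Overlaps were tested on simulated data: 200 of 200 placed peaks were found, and 0 of 21774 genes differed from a direct count. Python 3.11.15, numpy 2.4.6, pandas 2.3.3, scipy 1.17.1 and matplotlib 3.10.9 were used.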

Additional observations from a re-analysis of the deposited data

How the results depend on the processing

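Without flanks the members had 6 peaks in place of 11, at 5 of the 10 genes: this leaves out the 4 flank peaks and the Nsd3 boundary peak, which begins 32 bp outside the gene. With only the highest 25% of scores, 1 member, Setd2, had a boundary peak, and 1 of the 4 with a listed start, also Setd2, had a peak there. The Kdm4a peak, at 17.66, fell just short of the cutoff of 17.9. Neither share was computed over all genes at that cutoff, which lay near the 17.1 median of all genes with a boundary peak. Among those genes 45.7% had a boundary peak scoring above the 17.66 of Kdm4a, so a score in this range is common. The median of the members' highest scores was 20.3, against 17.7 without flanks, 19.4 with flanks of 10 kb and 16.1 at boundaries alone. The background share of 63.8% was 81.1% in genes at least as long as the shortest member, 41.1% over all annotated genes, 66.5% with flanks of 10 kb and 60.3% without. The other alternatives moved no count by over 1.5 times: between 5 and 8 members had a peak in the gene or flanks (8 with 10 kb, which adds Kdm2a) and between 4 and 6 a boundary peak. Starts were taken as listed for each gene, and the outermost start alone was not run. With 10 genes, the members' counts carry intervals too wide to set them apart from the background. These intervals cover counting error over genes only, and with 1 library of unknown depth the spread between libraries is unknown.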

Other observations

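Starts with a peak differed in sequence from those without, over the 21263 listed starts of protein-coding genes. The median number of CG dinucleotides in 300 bases was 21 at the 11537 starts with a peak within 1 kb and 4 at the others. The GC box GGGCGG was found in 66.3% of starts with a peak and 22.3% of those without, and the ETS core CCGGAAG in 17.3 and 4.81%. The TATA box TATAAA went the other way, with 6.3% against 20.1%, and CCAAT was nearly level, 37.9 against 38.6%. Letters were matched on both strands. The 2 groups of starts also differed in CG content, and its part in the motif shares was not tested.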
